A study of Mus musculus with 6 samples.

Results

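Type 2 immunity and its link to the lipid-sensing nuclear receptor PPARγ were followed through 8 genes, Pparg, Il1rl1, Ccr3, Il4ra, Il4, Il5, Il13 and Stat6, picked by name as known genes of T helper 2 (Th2) cells or of tissue regulatory T cells. All 8 were present in both deposited expression tables, among 24424 genes of the count table and 23393 genes of the normalized table. The cells were mouse regulatory T cells (Tregs), which express Foxp3 and keep immune responses in check, sorted from spleen and peripheral lymph nodes and profiled by bulk RNA sequencing in 6 libraries. The KO EAE group (2 libraries) and the KO group at steady state (2 libraries) both carried the strain label Bcl11bF/WT Foxp3YFP-Cre +/-, and the WT group at steady state (2 libraries) carried the strain label Bcl11bF/F, with no Cre named. Foxp3YFP-Cre is a Cre recombinase driven from the Foxp3 gene, so it acts in Foxp3-expressing cells. Its target is Bcl11b, a zinc finger transcription factor of T cells, where F usually denotes an allele flanked by loxP sites, and the labels give the KO strain as F/WT and the WT strain as F/F. EAE usually stands for experimental autoimmune encephalomyelitis, an induced inflammation of the mouse central nervous system. A WT group with EAE was not analysed here, so in KO EAE against WT the genotype and EAE cannot be told apart. Age, sex and the number of animals behind a library are not stated in the labels, so p-values measure the spread between libraries, which may be technical.

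Depth and labels bear on every value below. The count table held 14663542 to 16904312 reads per library, and levels are given as TMM-scaled CPM. Before that scaling 3 reads make 0.178 to 0.205 CPM. Such floors and all intervals cover counting error only. Bcl11b itself stood at 404 and 278 CPM in KO EAE libraries, 371 and 369 CPM in KO libraries and 419 and 424 CPM in WT libraries, and KO against WT gave a log2 change of -0.19 ± 0.17 (SE) that did not pass (edgeR adjusted p = 0.527). The counts cover the whole gene and the deleted stretch is not given in the sources used here, so this does not check the labels, and KO, KO EAE and WT below mean the libraries so labelled. In the separately normalized table Bcl11b had a signal of 6746 and 5211 in KO, against 10518 and 11371 in WT (log2 difference -0.88 ± 0.14, SE; limma adjusted p = 0.0712, and 0.0425 with a pseudocount of 8), and the authors' deposited table gave -0.80 (adjusted p = 7.91e-08). Markers of Tregs and CD4 T cells (9 of 10 listed genes present) summed to 1767 and 1635 CPM in KO EAE, 1635 and 1696 CPM in KO and 2204 and 2125 CPM in WT. Of these 9, 4 fell in KO against WT by edgeR (Foxp3, Il2ra, Ctla4, Ikzf2), while the other 5 did not pass and summed to 920 and 889 CPM in KO EAE, 852 and 932 CPM in KO and 909 and 886 CPM in WT. Markers of macrophages (18 of 18 present) summed to 2714 and 3062 CPM in KO EAE, 2955 and 3484 CPM in KO and 495 and 530 CPM in WT, and all 18 rose in KO against WT by edgeR (16 to 18 when any 1 library was left out). In bulk samples, more cells of a type and more RNA per cell cannot be told apart.

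As background, IL-4 and IL-13 signal through receptors that share the IL-4 receptor alpha chain, encoded by Il4ra, and the signal transducer STAT6 carries that signal to the nucleus, where the Th2 programme is switched on together with GATA3. IL-33, an alarm cytokine released by damaged tissue, acts through ST2, encoded by Il1rl1, which marks Th2 cells, group 2 innate lymphoid cells and Tregs of tissues such as fat and gut. PPARγ, encoded by Pparg, binds DNA with a retinoid X receptor and drives genes of lipid uptake and storage. It is known for its role in Tregs of visceral fat, in Th2 cells and in macrophages. CCR3 is the eotaxin receptor of eosinophils and is also found on Th2 cells and basophils.

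The genes lie on 6 chromosomes (GENCODE M21, mm10): Il1rl1 at chr1:40429570-40465415, Pparg at chr6:115360951-115490399, Il4ra at chr7:125552120-125579474, Ccr3 at chr9:124021972-124031689, Stat6 at chr10:127642986-127660957, and Il4, Il13 and Il5 in the Th2 cytokine cluster at chr11:53602982-53618669, chr11:53631324-53634702 and chr11:53720794-53725106. Il4 and Il13 are on the minus strand and the others on the plus strand. Below are the bases just before a RefSeq start (GRCm38.p6) of the 3 genes with large differences between KO and WT, and of Il1rl1, the IL-33 receptor gene, which did not share that difference. The Pparg start lies inside the gene, between its first and last base. Each stretch is written 5′ to 3′ on the strand of its gene, and stretches inside annotated exons were left out. Capitals mark GATA or its reverse complement TATC, the core that GATA factors read, and TTCNNNNGAA (the same on both strands), the spacing that STAT6 prefers. No match of the 2 motifs overlapped another in these windows.
Pparg chr6:115421816-115422065 plus strand: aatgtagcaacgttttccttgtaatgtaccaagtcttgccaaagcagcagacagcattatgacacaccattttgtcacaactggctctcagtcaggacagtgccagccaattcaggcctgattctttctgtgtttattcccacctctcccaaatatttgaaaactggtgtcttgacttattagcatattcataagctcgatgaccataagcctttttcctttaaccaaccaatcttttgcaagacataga
Ccr3 chr9:124021721-124021970 plus strand: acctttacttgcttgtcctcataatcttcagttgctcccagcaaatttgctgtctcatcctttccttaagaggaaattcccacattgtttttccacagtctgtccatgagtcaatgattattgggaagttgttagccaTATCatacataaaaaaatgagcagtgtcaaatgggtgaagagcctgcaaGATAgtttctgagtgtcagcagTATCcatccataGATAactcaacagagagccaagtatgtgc
Il4 chr11:53618670-53618915 minus strand: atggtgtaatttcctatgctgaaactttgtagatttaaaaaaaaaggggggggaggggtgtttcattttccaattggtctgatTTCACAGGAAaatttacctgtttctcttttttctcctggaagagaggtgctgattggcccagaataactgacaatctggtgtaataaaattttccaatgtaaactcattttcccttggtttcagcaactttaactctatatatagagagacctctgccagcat
Il1rl1 chr1:40429320-40429569 plus strand: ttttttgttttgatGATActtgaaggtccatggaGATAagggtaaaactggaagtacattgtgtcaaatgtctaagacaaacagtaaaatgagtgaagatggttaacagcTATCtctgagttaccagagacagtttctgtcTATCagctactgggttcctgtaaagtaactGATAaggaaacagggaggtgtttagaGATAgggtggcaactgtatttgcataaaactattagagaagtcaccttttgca
The Ccr3 stretch held 4 GATA matches and the Il1rl1 stretch 6, against 53.6% of 32851 RefSeq promoters of 250 bases with at least 1 match. The Il4 stretch held 1 STAT6-type match, which 5.85% of those promoters hold, and the Pparg stretch held neither motif. Before another Il4 start (chr11:53617339-53617588), not shown, there were 0 STAT6-type and 3 GATA matches. Before another Il1rl1 start (chr1:40439379-40439628), not shown, there were 0 STAT6-type and 2 GATA matches. The direct repeat AGGTCANAGGTCA, read on both strands as a PPAR and retinoid X receptor element, was found in 0.0335% of the promoters and at none of the 12 starts of the 8 genes. A match is a description of letters, not of binding.

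Pparg, Ccr3 and Il4 were higher and Il4ra was lower in KO than in WT in the count table, Pparg, Ccr3 and Il4 were also higher in KO EAE than in WT, and no gene of the 8 passed in KO EAE against KO. A gene was called where its edgeR adjusted p was under 0.05. In KO against WT 4 of the 7 genes tested were called, 3 higher and 1 lower, where 12.9% of all 14548 genes tested were called, 9.41% higher and 3.46% lower. The median log2 change of the 7 was 0.78, against -0.01 over all genes tested. That median is the value of Il13 (SE 0.67), which was not called and had few reads. Il4 passed the filter on low counts through its KO and KO EAE reads. The 8 genes were chosen with earlier results known, so their shares are a description. In KO EAE against WT 3 of 7 were called (Pparg, Ccr3, Il4), against 9.36% of all genes, 7.41% higher and 1.95% lower. DESeq2 called 5 there, and 15.9% of all 13958 genes to which it gave an adjusted p. In KO EAE against KO none of 7 was called by edgeR or by DESeq2 and 1 (Il1rl1) had an unadjusted p under 0.05, against 0.0137% of all genes called by edgeR and 9.47% with an unadjusted p under 0.05. These comparisons share libraries. For the normalized table, limma called none of the 6 tested and edgeR on recovered reads called none, 1 (Pparg) having an unadjusted p under 0.05 in limma, as did 12.7% of all genes. The share of all genes called there was 0.0697% by limma (0.0465% higher, 0.0232% lower) and 0.0979% by edgeR. The authors' deposited test of KO against WT put 349 of 10396 genes under an adjusted p of 0.05.

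**Figure D1:**
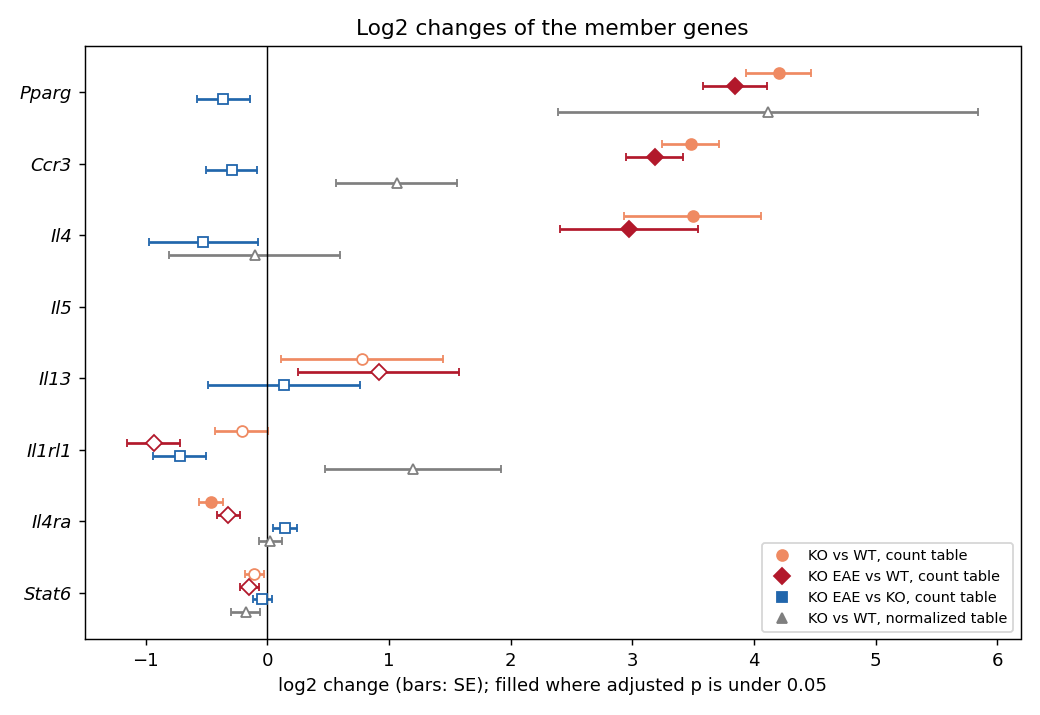
Log2 changes (horizontal axis, bars are SE) of the 8 genes in 3 comparisons of the count table and in KO against WT of the normalized table, where the scale is log2(signal + 1); filled symbols have an adjusted p under 0.05. Pparg and Ccr3 lie between 3.18 and 4.2 against WT in the count table, Il4ra lies at -0.47, and Il5 has no point because it was not tested.

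Pparg, the nuclear receptor, was at a low level in WT and well above it in the other groups. It stood at 32.8 and 34.0 CPM in KO EAE libraries (511 and 530 reads), 44.0 and 41.8 CPM in KO libraries (777 and 613 reads) and 3.0 and 1.65 CPM in WT libraries (48 and 27 reads). Every KO and KO EAE library lay far above both WT libraries, and both KO EAE libraries lay below both KO libraries. The mean was 42.9 ± 1.6 CPM in KO and 2.32 ± 0.95 CPM in WT (SD, n = 2 each), an 18.4-fold rise with a log2 change of 4.2 ± 0.27 (SE; edgeR adjusted p = 0.000248). KO EAE averaged 33.4 ± 0.87 CPM (SD, n = 2), and KO EAE against WT gave a log2 change of 3.84 ± 0.26 (SE; edgeR adjusted p = 0.000464). KO EAE against KO gave a log2 change of -0.36 ± 0.22 (SE), which did not pass (edgeR adjusted p = 0.612). Against the WT group the call held whichever library was left out, with log2 changes of 3.83 to 4.71 for KO and 3.48 to 4.35 for KO EAE.

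The normalized table, which the authors scaled by size factors, listed Pparg at a signal of 122 and 174 in the KO libraries and at 0 and 71.1 in the WT libraries. Recovered as whole reads these are 148 and 203 reads in KO, against 0 and 66 in WT. Both KO libraries were above both WT libraries, and WT replicate 1 had no read at all. The log2(signal + 1) difference was 4.11 ± 1.73 (SE), a value set by that 0, and did not pass (limma adjusted p = 0.386). Without WT replicate 1 it was 1.03. With edgeR on recovered reads the log2 change was 2.05 ± 1.37 (SE), which did not pass (edgeR adjusted p = 0.596). The authors' deposited table gave Pparg a log2 fold change of 0.04 (adjusted p = 0.869). How that fold change was estimated is not stated in the sources used here, so it may not be a like measure.

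Ccr3, the eotaxin receptor, differed between the groups in the same direction as Pparg. It stood at 110 and 128 CPM in KO EAE libraries, 131 and 161 CPM in KO libraries and 10.1 and 16.1 CPM in WT libraries. No KO or KO EAE library overlapped the WT libraries, and the KO EAE libraries sat just under the KO libraries. Ccr3 averaged 146 ± 21 CPM in KO and 13.1 ± 4.2 CPM in WT (SD, n = 2 each), an 11.2-fold rise with a log2 change of 3.48 ± 0.23 (SE; edgeR adjusted p = 0.000316). KO EAE averaged 119 ± 13 CPM (SD, n = 2), and KO EAE against WT gave a log2 change of 3.18 ± 0.23 (SE; edgeR adjusted p = 0.000595). The difference between KO EAE and KO, -0.29 ± 0.21 (log2, SE), did not pass (edgeR adjusted p = 0.642). Its normalized signal was 414 and 372 in KO, against 108 and 324 in WT, with a log2 difference of 1.06 ± 0.50 (SE) that did not pass (limma adjusted p = 0.419). There WT replicate 2 was close to the KO libraries and WT replicate 1 was well below them.

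**Figure D2:**
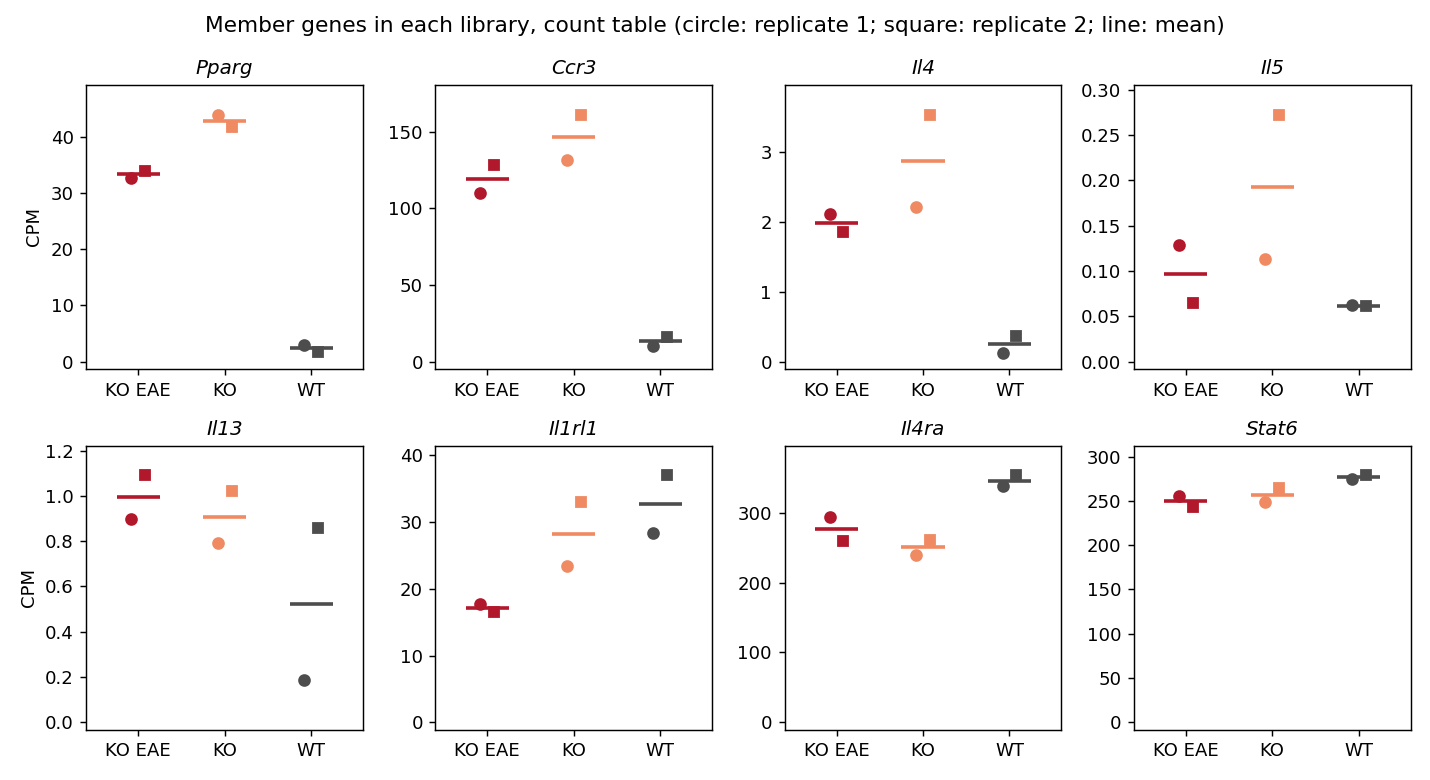
CPM of the 8 genes in each library of the count table, with KO EAE, KO and WT from left to right, circles for replicate 1, squares for replicate 2 and lines for group means; each panel has its own axis. Pparg, Ccr3 and Il4 separate the KO EAE and KO libraries from WT, Il4ra and by a small margin Stat6 run the other way, and Il5 stays under 0.3 CPM.

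Macrophage markers moved with Pparg and Ccr3 in the count table, as given above, and their part in the result was not tested. Per 1000 CPM of those 18 markers, Pparg stood at 12.1 and 11.1 CPM in KO EAE, 14.9 and 12 CPM in KO and 6.06 and 3.12 CPM in WT. Ccr3 stood at 40.6 and 42.0 CPM in KO EAE, 44.5 and 46.3 CPM in KO and 20.5 and 30.3 CPM in WT. On that scale the KO and KO EAE libraries remained above WT for both genes, by much less than in CPM. The same ratio from recovered reads of the normalized table was 1.97 and 3.35 for Pparg in KO, against 0 and 2.62 in WT, and 6.67 and 7.15 for Ccr3 in KO, against 6.78 and 11.9 in WT, so there KO and WT overlapped for both genes. The macrophage sum in that table was 2961 and 2487 CPM in KO, against 755 and 1296 CPM in WT, with 0 of 18 markers called by limma (6 with a pseudocount of 8) or by edgeR on recovered reads and 16 at an unadjusted p under 0.05 in limma.

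**Figure D3:**
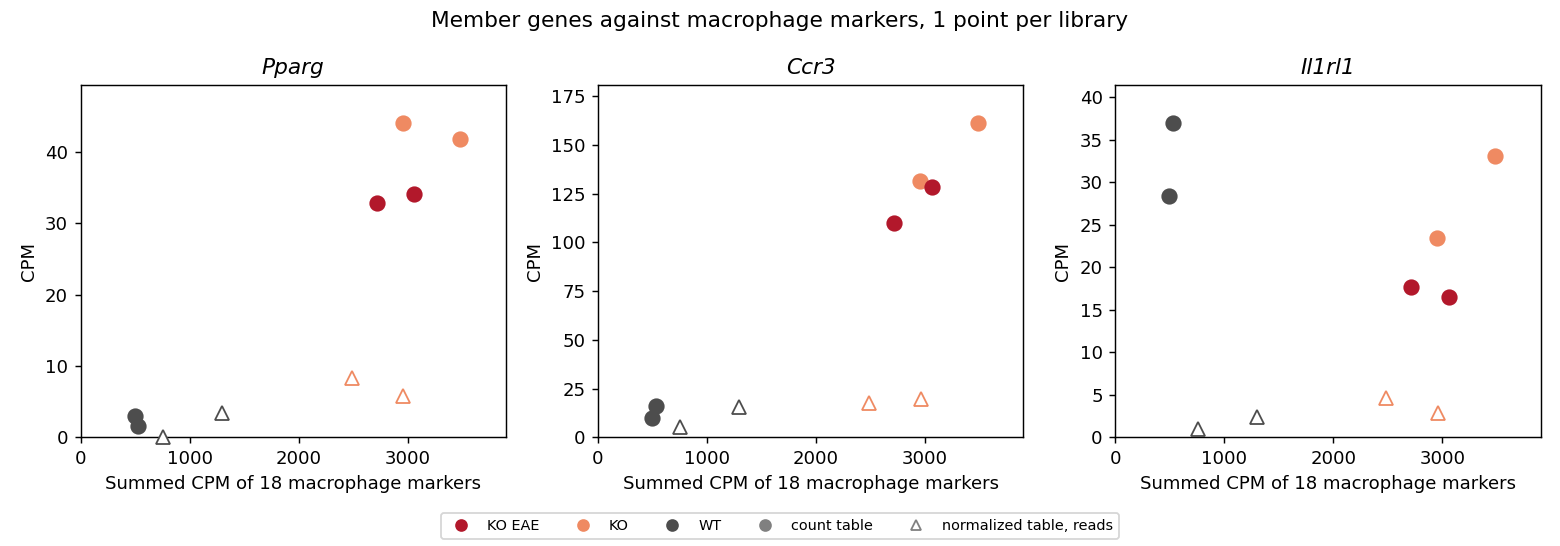
CPM of Pparg, Ccr3 and Il1rl1 (vertical axes) against the summed CPM of 18 macrophage markers (horizontal axes), 1 point per library, with filled circles for the count table and open triangles for reads recovered from the normalized table, which was scaled separately. KO EAE and KO libraries of the count table sit at a macrophage sum of 2714 to 3484 CPM, against 495 and 530 CPM in WT. Within the count table Pparg and Ccr3 are high where that sum is high, and Il1rl1 is not. KO libraries of the normalized table have sums of 2961 and 2487 CPM, with Pparg at 5.83 and 8.33 CPM and Ccr3 at 19.7 and 17.8 CPM. There Il1rl1 is at 2.84 and 4.64 CPM in KO, against 0.964 and 2.47 CPM in WT.

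The markers of other cell types that use these genes were also read. Eosinophil markers (9 genes) summed to 22.5 and 10.7 CPM in KO EAE, 12.7 and 25.5 CPM in KO and 2.50 and 2.75 CPM in WT, and 2 of 6 tested (Prg3, Ear2) rose in KO against WT. Ear1 (3.12 and 10.5 CPM) and Ear2 (4.93 and 9.54 CPM) carried most of that sum in the KO libraries. Epx, the eosinophil peroxidase, stayed at or under 1.15 CPM, and Ear6 had no read in the KO EAE and WT libraries. Basophil and mast cell markers (12 genes) summed to 70.7 and 102 CPM in KO EAE, 83.7 and 67.5 CPM in KO and 51.4 and 48.2 CPM in WT, and 3 of 10 tested rose in KO against WT (Ms4a2, Prss34, Kit). Within that sum Il3ra stood at 37.7 and 37.0 CPM in KO EAE, 45.4 and 36.0 CPM in KO and 39.2 and 37.0 CPM in WT. Kit stood at 16.1 and 25.9 CPM in KO EAE, 21.4 and 17.0 CPM in KO and 6.31 and 4.40 CPM in WT. Tpsb2 had no read in KO replicate 1 and Mcpt4 had none in WT replicate 1. Markers of group 2 innate lymphoid cells (10 genes), of which edgeR called none of 7 tested in KO against WT, DESeq2 called 1 and 3 had an unadjusted p under 0.05, summed to 556 and 542 CPM in KO EAE, 520 and 607 CPM in KO and 474 and 553 CPM in WT. Il7r, Rora and Bmp7 carried that sum in every library, and the other 7 summed to 31.8 and 56.3 CPM in KO EAE, 55.1 and 58.4 CPM in KO and 44.6 and 44.2 CPM in WT. Of the normalized libraries, all 4 were at 0 for Epx, Ear1, Ear6, Mcpt8, Fcer1a, Ms4a2 and Prss34. Other markers called higher in KO than in WT were 4 of 10 for dendritic cells (Itgax, Clec9a, Batf3, Sirpa), which summed to 486 and 511 CPM in KO EAE, 540 and 654 CPM in KO and 219 and 224 CPM in WT (without Ccr7, which T cells also express, 307 and 366 CPM in KO EAE, 391 and 501 CPM in KO and 32.7 and 37.2 CPM in WT), and 4 of 6 for NK cells, which summed to 147 and 230 CPM in KO EAE, 195 and 187 CPM in KO and 63.2 and 53.1 CPM in WT. Erythroid markers had 3 of 4 called higher, B cell markers 1 of 8 and monocyte and neutrophil markers 1 of 6, where 9.41% of all genes were called higher. The part of these cells in the results on Pparg, Ccr3, Il4 and Il13 was not tested.

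Il1rl1, the ST2 chain of the IL-33 receptor, did not follow Pparg and Ccr3. It stood at 17.7 and 16.5 CPM in KO EAE libraries, 23.4 and 33.0 CPM in KO libraries and 28.4 and 37.0 CPM in WT libraries. The KO and WT libraries overlapped, while both KO EAE libraries lay below all other libraries. Il1rl1 averaged 28.2 ± 6.8 CPM in KO and 32.7 ± 6.1 CPM in WT (SD, n = 2 each), a log2 change of -0.21 ± 0.21 (SE) that did not pass (edgeR adjusted p = 0.569) and was 0.02 without KO replicate 1. KO EAE averaged 17.1 ± 0.86 CPM (SD, n = 2). KO EAE against KO gave a log2 change of -0.72 ± 0.22 (SE; edgeR unadjusted p = 0.0156, adjusted p = 0.496), and KO EAE against WT gave -0.93 ± 0.22 (SE; edgeR adjusted p = 0.0514), so neither passed. In KO EAE against WT, Il1rl1 passed under DESeq2 and without the filter on low counts. Normalized signals ran the other way, at 59.5 and 97.0 in KO, against 20.4 and 51.7 in WT, with both KO libraries above both WT libraries and a log2 difference of 1.20 ± 0.73 (SE) that did not pass (limma adjusted p = 0.521). In the count table Il1rl1 per 1000 CPM of macrophage markers was 6.52 and 5.39 CPM in KO EAE, 7.92 and 9.49 CPM in KO and 57.3 and 69.8 CPM in WT. In recovered reads of the normalized table the same ratio was 0.958 and 1.87 in KO, against 1.28 and 1.90 in WT, and the groups overlapped.

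Il4ra, the receptor chain shared by IL-4 and IL-13, was lower in KO and well expressed in every library. It stood at 294 and 260 CPM in KO EAE libraries, 239 and 262 CPM in KO libraries and 338 and 354 CPM in WT libraries. Both WT libraries lay above the other 4, and the KO EAE and KO libraries overlapped. Il4ra averaged 251 ± 16 CPM in KO and 346 ± 11 CPM in WT (SD, n = 2 each), and fell by 0.47 ± 0.10 on the log2 scale (SE; edgeR adjusted p = 0.0294). That call was lost when any 1 of the 4 KO and WT libraries was left out (highest edgeR adjusted p = 0.188). KO EAE averaged 277 ± 24 CPM (SD, n = 2), with -0.32 ± 0.10 (log2, SE) against WT, which did not pass (edgeR adjusted p = 0.103) but did under DESeq2 and without KO EAE replicate 1. Of the 9 Treg and CD4 T cell markers 4 also fell in KO against WT, as given above, and of these Foxp3 fell by 0.38 on the log2 scale in KO against WT (edgeR adjusted p = 0.0254, up to 0.185 with 1 library left out); their part in the result was not tested. Normalized Il4ra signal was 10461 and 10397 in KO, against 10409 and 10089 in WT, with a log2 difference of 0.03 ± 0.09 (SE; limma adjusted p = 0.933).

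Il4, the cytokine that starts and sustains Th2 responses, was higher in KO and KO EAE than in WT, a result that rests on few reads in WT. It had 33 and 29 reads in KO EAE libraries, 39 and 52 reads in KO libraries and 2 and 6 reads in WT libraries, or 2.12 and 1.86 CPM in KO EAE, 2.21 and 3.54 CPM in KO and 0.125 and 0.367 CPM in WT. The WT libraries lay below all others. Il4 averaged 2.88 ± 0.94 CPM in KO and 0.246 ± 0.17 CPM in WT (SD, n = 2 each), a log2 change of 3.50 ± 0.56 (SE; edgeR adjusted p = 0.0113). The summed reads were 91 in KO and 8 in WT, a ratio of 11.9 once scaled to library reads (95% exact interval 5.79 to 28.4, counting error only). The call was lost without KO replicate 2 and without WT replicate 1 (highest edgeR adjusted p = 0.0774). KO EAE averaged 1.99 ± 0.18 CPM (SD, n = 2), and KO EAE against WT gave a log2 change of 2.97 ± 0.57 (SE; edgeR adjusted p = 0.0270), a call that was lost in 5 of the 6 fits with a library left out (highest edgeR adjusted p = 0.160) and with only the 2 groups compared (edgeR adjusted p = 0.0686). KO EAE against KO gave -0.53 ± 0.45 (log2, SE), which did not pass (edgeR adjusted p = 0.693). Macrophage markers moved with Il4 as well, and their part was not tested. Per 1000 CPM of those markers Il4 stood at 0.780 and 0.608 CPM in KO EAE, 0.748 and 1.02 CPM in KO and 0.253 and 0.692 CPM in WT, so on that scale KO EAE overlapped WT and KO lay above it.

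The normalized table gave another picture for Il4. Its signal was 39.7 and 34.3 in KO, against 45.8 and 34.5 in WT, from 48 and 40 recovered reads in KO, against 36 and 32 in WT. The groups overlapped, with a log2 difference of -0.10 ± 0.70 (SE; limma adjusted p = 0.965) and a read ratio of 0.951 (95% exact interval 0.685 to 1.32). The WT libraries of the count table held 8 Il4 reads together, and 68 were recovered for those of the normalized table, under the same library names.

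Il5 and Il13, the cytokines of eosinophils and of mucus and tissue repair, were near the detection limit. Il5 had 2 and 1 reads in KO EAE libraries, 2 and 4 reads in KO libraries and 1 and 1 reads in WT libraries, too few for the test. The scaled ratio of summed Il5 reads in KO to WT was 3.14 (95% exact interval 0.561 to 31.8), so a difference was not detectable at this depth. Il5 was listed at 0 in all 4 libraries of the normalized table. Il13 had 14 and 17 reads in KO EAE libraries, 14 and 15 reads in KO libraries and 3 and 14 reads in WT libraries. WT replicate 1 stood apart from the other 5 libraries, and WT replicate 2 lay inside their range. Il13 gave a log2 change of 0.78 ± 0.67 in KO against WT (SE; edgeR adjusted p = 0.50) and of 0.92 ± 0.66 in KO EAE against WT (SE; edgeR adjusted p = 0.430), and neither passed. Only KO replicate 1 of the normalized table held Il13 reads, 2 in number.

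Stat6, the transcription factor downstream of the IL-4 receptor, passed the test in none of the comparisons and spanned a narrow range. It stood at 256 and 243 CPM in KO EAE libraries, 249 and 264 CPM in KO libraries and 274 and 279 CPM in WT libraries. The WT libraries were the 2 highest, by a small margin. KO against WT gave a log2 change of -0.11 ± 0.08 (SE; edgeR adjusted p = 0.412), and KO EAE against WT gave -0.15 ± 0.08 (SE; edgeR adjusted p = 0.274). Normalized Stat6 signal was 11553 and 11537 in KO, against 14533 and 11754 in WT, where WT replicate 1 was the high library (log2 difference -0.18 ± 0.12, SE; limma adjusted p = 0.564). Stat6 and Nab2, on the opposite strand, share 40 bases of exon (chr10:127660918-127660957), and since strand use is not stated their reads there cannot be told apart. The same holds for antisense genes that overlap exons of Il5 and Il4ra.

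**Figure D4:**
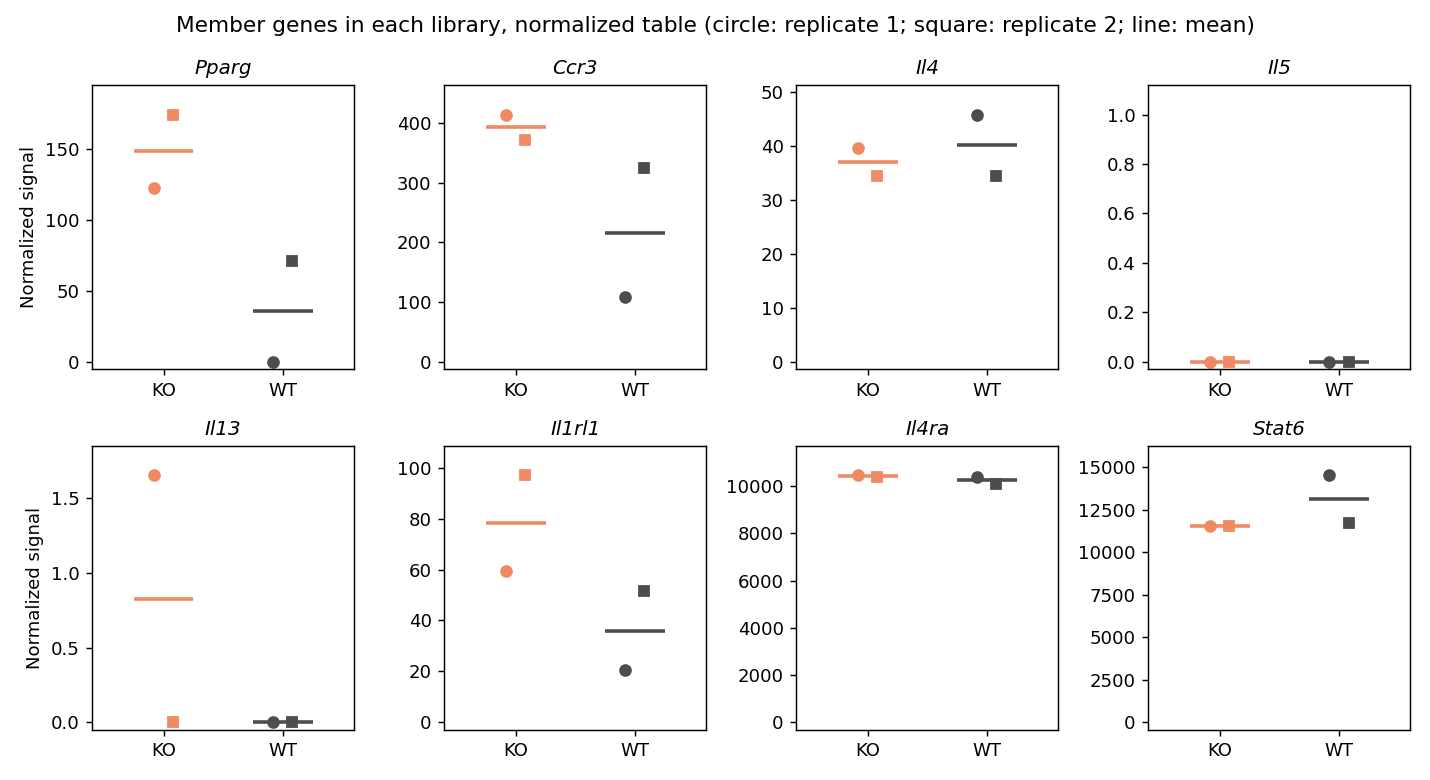
Normalized signal (counts divided by the authors' size factors) of the 8 genes in the 4 libraries of the normalized table, KO left of WT, with circles for replicate 1, squares for replicate 2 and lines for group means; each panel has its own axis. The KO libraries are above WT for Pparg, Ccr3 and Il1rl1 and below WT for Stat6, and limma called none of these. The groups overlap for Il4, Il13 and Il4ra, and Il5 is at 0 throughout. The share of all genes whose groups lie apart in this way is not given here.

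The levels of the 8 genes can be set against each other per length of exon. In WT, Stat6 (62.9 CPM per kb) and Il4ra (57.6 CPM per kb) came first, Il1rl1 (4.74 CPM per kb) and Ccr3 (4.0 CPM per kb) followed with ranges that overlapped, and Pparg stood at 0.787, Il13 at 0.433, Il4 at 0.200 and Il5 at 0.0402 CPM per kb. In KO the order was Stat6 at 58.3, Ccr3 at 44.7, Il4ra at 41.8, Pparg at 14.5, Il1rl1 at 4.09, Il4 at 2.34, Il13 at 0.753 and Il5 at 0.126 CPM per kb, and the ranges of Ccr3 and Il4ra overlapped. In KO EAE it was Stat6 at 56.6, Il4ra at 46.2, Ccr3 at 36.5, Pparg at 11.3, Il1rl1 at 2.48, Il4 at 1.62, Il13 at 0.825 and Il5 at 0.0626 CPM per kb. Ccr3 thus had a level per kb close to that of Il4ra in KO, and close to that of Il1rl1 in WT.

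The genes around Pparg were read next. Of its partners and lipid targets, 8 of 26 tested were called in KO against WT and all 8 were higher: Rxra, Nr1h3, Cd36, Fabp4, Lpl, Plin2, Angptl4 and Apoe (7 or 8 when any 1 library was left out, with 0 to 3 lower, above 0 without KO EAE replicate 1 and without KO EAE replicate 2). Over all genes 9.41% were called higher and 3.46% lower. The median of the list was 0.24, since most of its genes, such as the coactivators and corepressors, were not called. Lpl, lipoprotein lipase, averaged 90.4 CPM in KO and 4.26 CPM in WT, a log2 change of 4.40 ± 0.30 (SE; edgeR adjusted p = 0.000303). Fabp4, a fatty acid carrier of fat cells and macrophages, averaged 4.16 CPM in KO and 0.340 CPM in WT, a log2 change of 3.58 ± 0.36 (SE; edgeR adjusted p = 0.00165). Nr1h3, the liver X receptor alpha of macrophages, averaged 83.1 CPM in KO and 7.71 CPM in WT, a log2 change of 3.43 ± 0.19 (SE; edgeR adjusted p = 0.000155). The same 8 genes were called in KO EAE against WT, where 7.41% of all genes were called higher. Macrophage markers moved with these genes too, and their part was not tested. For the normalized table none of 24 tested was called by limma or by edgeR on recovered reads. Limma gave 3 of the 24 an unadjusted p under 0.05, near the share of 12.7% over all genes.

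The Th2 programme outside the 8 genes had calls in both directions. Of 22 tested, 2 were higher in KO than in WT (Epas1, Igfbp7) and 5 lower (Il10, Areg, Ccr8, Irf4, Nfil3), with a median log2 change of -0.08, against -0.01 over all genes tested. The shares of all genes tested were 9.41% called higher and 3.46% called lower. Leaving out any 1 library gave 1 to 5 higher, with KO replicate 1, KO replicate 2, KO EAE replicate 2 and WT replicate 1 each moving that number by over 1.5 times, and 2 to 7 lower, with KO replicate 1 doing so. Gata3, the Th2 lineage factor, stood at 185 and 170 CPM in KO EAE, 159 and 167 CPM in KO and 187 and 192 CPM in WT, a log2 change of -0.22 ± 0.08 in KO against WT that did not pass (SE; edgeR adjusted p = 0.127). Areg, a growth factor of tissue repair, stood at 13.5 and 8.54 CPM in KO EAE, 3.34 and 5.66 CPM in KO and 24.0 and 33.0 CPM in WT, and fell by 2.67 ± 0.37 on the log2 scale in KO against WT (SE; edgeR adjusted p = 0.00612, lost at 0.0568 without KO replicate 1). Il10, the suppressive cytokine, stood at 30.5 and 22.0 CPM in KO EAE, 10.9 and 10.5 CPM in KO and 29.7 and 38.6 CPM in WT. Il10 fell by 1.67 ± 0.22 on the log2 scale in KO against WT (SE; edgeR adjusted p = 0.00500, lost without KO replicate 1 and without KO replicate 2, highest 0.0613). For both genes the KO libraries were the lowest, while the KO EAE libraries lay between KO and WT for Areg and overlapped WT for Il10, and KO EAE against KO did not pass by edgeR (Areg 1.30, adjusted p = 0.496; Il10 1.29, adjusted p = 0.361), although DESeq2 called Il10. Igfbp7, a secreted growth factor binding protein, averaged 9.02 CPM in KO and 1.83 CPM in WT, a log2 change of 2.30 ± 0.46 (SE; edgeR adjusted p = 0.0247, up to 0.143 with 1 library left out).

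Tissue Treg genes were called lower more than higher in KO against WT, where 9.41% of all genes were called higher and 3.46% lower. Of 30 tested, 3 were higher in KO than in WT (Id2, Cxcr6, Pdcd1) and 9 lower (Irf4, Areg, Il10, Nfil3, Tnfrsf9, Ccr8, Nrp1, Ikzf2, Ctla4), with a median log2 change of -0.08, and several of them also stand in the Th2 list. Their number called lower was 2 to 13 when any 1 library was left out, and moved by over 1.5 times without KO replicate 1, KO replicate 2 or WT replicate 1. Cxcr6, a chemokine receptor of tissue lymphocytes, averaged 92.2 CPM in KO and 22.1 CPM in WT, a log2 change of 2.06 ± 0.18 (SE; edgeR adjusted p = 0.000940). On the normalized table, limma and edgeR called none of 30, and 16 had an unadjusted p under 0.05 in limma, against 12.7% of all genes. There Areg stood at a signal of 3.31 and 6.87 in KO, against 78.9 and 34.5 in WT (log2 difference -3.19 ± 1.04, SE; limma adjusted p = 0.294), and Il10 at 85.2 and 51.5 in KO, against 62.4 and 33.4 in WT.

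Downstream of the IL-4 and IL-13 receptor, 1 of 19 tested genes was higher in KO than in WT and 4 lower (Irs2, Socs1, Socs3, Stat5a), with a median log2 change of -0.11. Over all genes 9.41% were called higher and 3.46% lower. The higher gene was Il13ra1, which pairs with the IL-4 receptor alpha chain outside lymphocytes: it averaged 27.5 CPM in KO and 3.74 CPM in WT, a log2 change of 2.87 ± 0.31 (SE; edgeR adjusted p = 0.00235). Its log2 difference in the normalized table was 0.27 ± 0.45 (SE), where KO and WT overlapped and limma did not call it. Irs2, an adaptor phosphorylated after IL-4, stood at 177 and 138 CPM in KO EAE, 32.8 and 82.4 CPM in KO and 225 and 240 CPM in WT, and fell by 2.02 ± 0.40 on the log2 scale in KO against WT (SE; edgeR adjusted p = 0.0235). Irs2 lost that call without WT replicate 1 and without WT replicate 2 (highest edgeR adjusted p = 0.0816). Stat5a fell by 0.45 ± 0.09 on the log2 scale (SE; edgeR adjusted p = 0.0214), and this call was lost without any 1 of the 4 KO and WT libraries. The number called lower was 0 to 5 when any 1 library was left out and moved by over 1.5 times without any 1 of the KO and WT libraries. In the normalized table Irs2 (-0.37 ± 0.17, log2, SE) and Stat5a (-0.30 ± 0.12, log2, SE) were also lower in KO, without a limma call. Of the IL-33 receptor pathway, Irak4, a receptor kinase, was higher in the count table (log2 change 0.44 ± 0.08, SE; edgeR adjusted p = 0.0171) and Traf6, a ubiquitin ligase downstream, was lower (-0.65 ± 0.11, SE; edgeR adjusted p = 0.0125) among 17 tested, with a median of -0.05. Normalized log2 differences were -0.10 ± 0.18 (SE) for Irak4 and 0.02 ± 0.13 (SE) for Traf6, and limma called neither. Irak4 lost its call without any 1 of the 4 KO and WT libraries, and Traf6 without KO replicate 1, WT replicate 1 or WT replicate 2.

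Partners of IL-5 and the eotaxins form a short list, in which most of the tested genes were higher in the count table. Of 6 tested, 4 were higher in KO than in WT (Csf2rb, Csf2rb2, Ccl24, Ccl5) and none lower, with a median log2 change of 3.71. Over all genes 9.41% were called higher and 3.46% lower. Ccl24, an eotaxin that CCR3 binds and that macrophages make, stood at 4.81 and 2.76 CPM in KO EAE, 11.5 and 13.7 CPM in KO and 0.625 and 0.428 CPM in WT. The KO libraries were the highest and the WT libraries the lowest for Ccl24, and KO against WT gave a log2 change of 4.56 ± 0.43 (SE; edgeR adjusted p = 0.00120). Csf2rb, the beta chain shared by the receptors for IL-3, IL-5 and GM-CSF, averaged 51.5 CPM in KO and 2.45 CPM in WT, a log2 change of 4.39 ± 0.49 (SE; edgeR adjusted p = 0.00247). Csf2rb2, an IL-3 receptor chain nearly identical to it, had a log2 change of 4.24 ± 0.52 (SE; edgeR adjusted p = 0.00361), and the share of reads between the pair is uncertain. Il5ra, the chain that binds IL-5 itself, stayed at or under 0.642 CPM in every library of the count table. In KO EAE against WT the same 4 genes were called, where 7.41% of all genes were called higher. Macrophage markers moved with this list as well, and their part was not tested. On the normalized table the median log2 difference of the 6 tested was 0.43, and neither limma nor edgeR on recovered reads called any. There KO and WT overlapped for Ccl24 (1.31 ± 1.21, SE), Csf2rb (0.27 ± 0.53, SE) and Csf2rb2 (0.10 ± 2.03, SE). Of the 6, 1 had an unadjusted p under 0.05 in limma, against 12.7% of all genes.

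**Figure D5:**
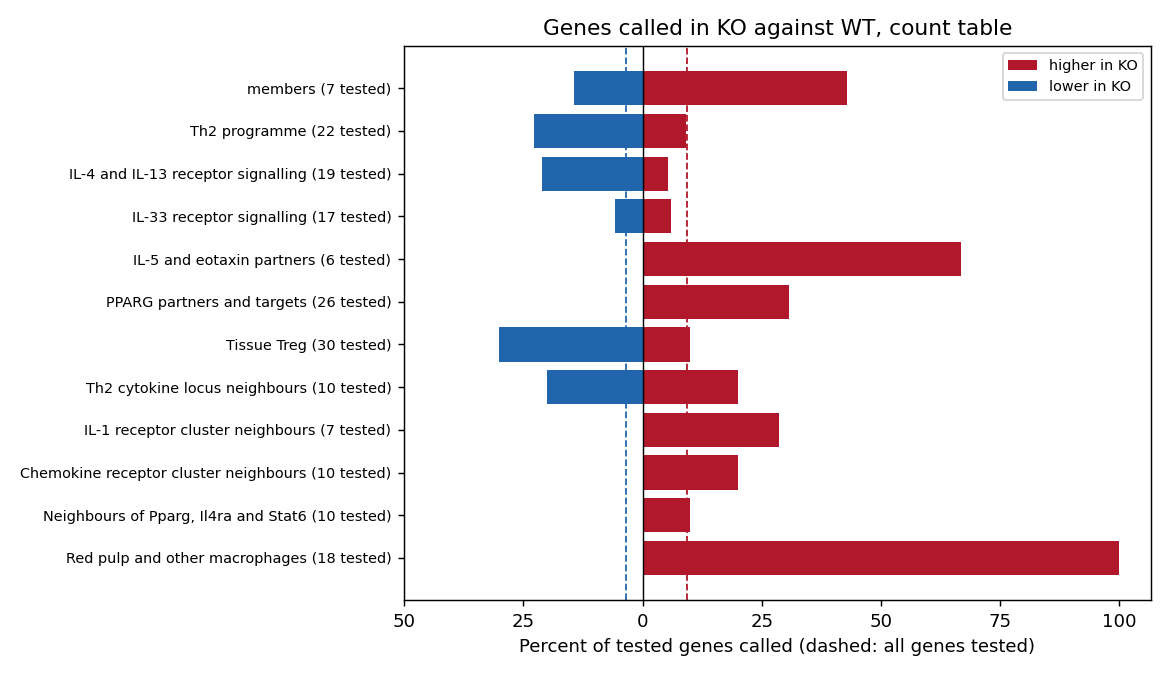
Percent of tested genes called higher (right) or lower (left) in KO against WT in the count table (edgeR adjusted p under 0.05), for the 8 genes, 10 gene lists and the macrophage markers, with dashed lines for all genes tested (9.41% higher, 3.46% lower). All 18 macrophage markers are called higher, the IL-5 and eotaxin partners and the PPARγ partners and targets are called only higher, and the tissue Treg genes are called lower more than higher.

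Over the 10 lists together, 145 genes were tested in the count table. KO against WT called 41 of them by edgeR and 50 by DESeq2, KO EAE against WT called 26 by edgeR and 41 by DESeq2, and KO EAE against KO called none by edgeR and 8 by DESeq2 (Ccl24, Ccrl2, Il10, Irf4, Ltf, Nfil3, Rxra, Socs3), with 22 at an unadjusted p under 0.05 in edgeR. Over all genes, 9.47% had an unadjusted p under 0.05 in edgeR and 1.24% were called by DESeq2 in KO EAE against KO. The shares of all genes called were 12.9% by edgeR and 16.8% by DESeq2 in KO against WT, and 9.36% and 15.9% in KO EAE against WT. For the normalized table, tests of 133 gave no call by limma or by edgeR on recovered reads, with 41 at an unadjusted p under 0.05 in limma, where 12.7% of all genes had one. With a pseudocount of 8 limma called 2 of them (Socs3, Id2).

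Over the 6 libraries of the count table, the genes whose pattern was most like those of Pparg, Ccr3 and Il1rl1 were sought among the 10544 genes that averaged 5 CPM or more, by the root-mean-square difference of log2(CPM + 0.5) after centring each gene. Those nearest to Pparg were Hs3st2 (0.107), Ltbr (0.127), Clec4b1 (0.139), Ms4a7 (0.145) and Dnase1l3 (0.167). Those nearest to Ccr3 were Cd302 (0.0384), Itgad (0.0929), Itga9 (0.137), Hpgd (0.138) and Fcgr3 (0.140). For Il1rl1 they were Hbegf (0.112), Fggy (0.182), Ppp2r3a (0.186), R74862 (0.212) and P3h1 (0.214). Cd302, for example, stood at 37.7 and 41.9 CPM in KO EAE, 45.9 and 55.8 CPM in KO and 3.31 and 5.26 CPM in WT. Hbegf stood at 7.12 and 6.80 CPM in KO EAE, 8.73 and 10.8 CPM in KO and 10.4 and 14.2 CPM in WT, so it shared with Il1rl1 the low KO EAE libraries. The libraries share depth and cell make-up, and the likeness is a description.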

How the data were processed

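Tregs had been sorted from mouse spleen and peripheral lymph nodes, and the sequencing libraries were NEBNext Ultra II libraries run on a NextSeq500, per the labels' protocols. HISAT2, HTSeq, DESeq2 and mm10 are the tools and genome build per the submitters' processing notes. Tool versions, annotation, strand setting and any molecular identifiers were not given in the sources used here. The authors deposited a table of unnormalized read counts, 1 column for each of the 6 libraries. A second table holds a signal for the KO and WT libraries that the authors deposited after division by size factors, as its values show. Another, the authors' deposited table of KO against WT, holds their log2 fold changes, a test score and p-values, per the file headers. Of the normalized values, 100% of those above 0 were whole multiples of 1 read (tolerance 0.02 reads), giving 16884434 to 25335011 recovered reads per library. The same library names carry different values in the count and normalized tables, so tests stayed within a table.

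Groups came from the sample titles. Rows naming no gene (25 of 24449 and 27 of 23420, at most 0.217% and 0.284% of a library) were left out. Replicates differed by more than sampling noise (chi-square per degree of freedom 16.5 to 32), so each library counted as 1 replicate. The 8 genes and all gene lists were chosen with earlier results of these data known. Named list genes are up to 3 per list that were called with the largest change in KO against WT; Il5ra and the single marker genes were named after their values were seen. Of the list genes, 257 matched the count table by symbol and 2 by synonym, and 3 were unmatched (253, 4 and 5 in the normalized table).

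Counts were tested with edgeR 4.0.16 in R 4.3.3 (filterByExpr, minimum count 10 and minimum total 15; TMM; quasi-likelihood F test; all 6 libraries, 3 residual degrees of freedom), with Benjamini-Hochberg adjustment over 14548 genes and a threshold of 0.05. CPM are TMM-scaled. The SE is the size of the log2 change divided by the square root of F. Normalized signal was tested with limma 3.58.1 with trend on log2(signal + 1) for 12904 genes with a mean of at least 5. Recovered reads were tested with edgeR (12253 genes, 12 called) as an alternative. The size of a change of a low gene depends on the added 1 and on any library at 0. Pparg, for example, gave 4.11 by limma and 2.05 by edgeR on recovered reads. Called means an adjusted p under 0.05. The other alternatives were DESeq2 1.42.0, other scaling, no filter, only the 2 groups compared, a replicate block, another pseudocount (8), and each library left out. Scripts were tested on simulated counts. Promoters came from RefSeq (GRCm38.p6), with all 8 genes matched, and positions from GENCODE M21, 1-based.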

Additional observations from a re-analysis of the deposited data

How the results depend on the processing

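Pparg and Ccr3 kept their direction and their calls against WT under every alternative of the count table, for KO and for KO EAE. Over all genes, KO against WT called 1873 (846 to 3087 with 1 library left out; 3121 with only the 2 groups compared), and 4 of the 8 genes (2 to 4 with 1 library left out). KO EAE against WT called 1362 (603 to 3762 with 1 library left out; 2213 under DESeq2; 782 with only the 2 groups compared), and 3 of the 8 genes (2 to 4 with 1 library left out; 5 under DESeq2). KO EAE against KO called 2 (0 to 313 with 1 library left out; 167 under DESeq2; 0 with only the 2 groups compared) and none of the 8 genes in any setting. Limma on the normalized table called 9 (0 in each fit with 1 library left out; 50 with a pseudocount of 8; 1 without the filter on low values) and none of the 8 genes in any setting. The cause of these shifts was not tested, beyond the fewer libraries that some fits hold.

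Some log2 differences that did not pass changed sign when 1 library was left out. In KO against WT, Il1rl1 ran from -0.48 to 0.021 (above 0 without KO replicate 1). In KO EAE against KO, Il13 ran from -0.050 to 0.33 (below 0 without KO replicate 1 and, at -0.0083, without KO EAE replicate 2), Stat6 from -0.093 to 0.0077 (above 0 without KO replicate 2), and Bcl11b from -0.41 to 0.12 and Foxp3 from -0.095 to 0.028 (both above 0 without KO EAE replicate 2). In the normalized table, Il4 ran from -0.30 to 0.096 (above 0 without WT replicate 1), Gata3 from -0.025 to 0.13 (below 0 without KO replicate 1), and Foxp3 from -0.16 to 0.0062 (above 0 without KO replicate 2 and, at 0.0011, without WT replicate 2).

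Whether same-numbered libraries are paired cannot be settled with 2 libraries a group. Deviations of same-numbered libraries correlated at 0.211 (KO EAE and KO), 0.0213 (KO and WT), -0.137 (KO EAE and WT) and 0.039 (KO and WT, normalized table). With the replicate number as a block, 0 genes were called in KO EAE against KO and 131 in the normalized table, and the edgeR adjusted p was 0.0583 for Il4ra in KO against WT and 0.0449 for Il1rl1 in KO EAE against WT. In the normalized table the block gave limma calls for Bcl11b (adjusted p = 0.0101), for 13 of 18 macrophage markers and for 7 genes of the 10 lists (Ecm1, Socs3, Apoe, Id2, Nrp1, Ikzf2 and, at an adjusted p of 0.045, Lrp1). With 2 libraries a group and few reads, Il4, Il5 and Il13 are limited by depth.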

Other observations

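Genes that lie beside the 8 genes were read as well, in mm10, where 9.41% of all genes were called higher and 3.46% lower in KO against WT. Around the Th2 cytokine cluster on chromosome 11, 2 of 10 tested neighbours were higher in KO than in WT (Slc22a4, Pdlim4) and 2 lower (Irf1, Slc22a5). With 1 library left out 1 to 3 were higher, with the number moving by over 1.5 times without KO replicate 2, and 0 to 2 lower, with the number moving by over 1.5 times without any 1 of the KO and WT libraries. Pdlim4, a LIM domain protein, averaged 30.0 CPM in KO EAE, 37.6 CPM in KO and 4.22 CPM in WT, with a log2 change of 3.15 ± 0.24 in KO against WT (SE; edgeR adjusted p = 0.000559). Slc22a5, a carnitine transporter, averaged 45.6 CPM in KO EAE, 52.0 CPM in KO and 132 CPM in WT, and fell by 1.35 ± 0.20 on the log2 scale in KO against WT (SE; edgeR adjusted p = 0.00880, up to 0.0959 with 1 library left out). Slc22a4, next to it, averaged 2.09 CPM in KO EAE, 3.38 CPM in KO and 0.184 CPM in WT, with a log2 change of 4.13 ± 0.63 in KO against WT (SE; edgeR adjusted p = 0.00903, lost at 0.0680 without KO replicate 2).

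Beside Il1rl1, in the cluster of IL-1 receptor genes on chromosome 1, 2 of 7 tested neighbours rose in KO against WT (1 to 3 with 1 library left out, and over 1.5 times off without any 1 of the KO and WT libraries). Il1rl2, the IL-36 receptor, averaged 11.4 CPM in KO EAE, 9.71 CPM in KO and 2.29 CPM in WT (log2 change 2.08 ± 0.24 in KO against WT, SE; edgeR adjusted p = 0.00310). Il18rap, a chain of the IL-18 receptor, had a log2 change of 1.73 ± 0.36 (SE; edgeR adjusted p = 0.0274, up to 0.152 with 1 library left out). Beside Ccr3 on chromosome 9, Cxcr6 and Ccr1l1 were the 2 of 10 tested that rose (1 to 4 with 1 library left out, and over 1.5 times off without any 1 library other than WT replicate 2); Ccr1l1 rests on 1.82 CPM in KO and 0.0917 CPM in WT, under the level of 3 reads in WT, and lost its call without KO replicate 1, KO replicate 2 or WT replicate 1. Of 10 tested neighbours of Pparg, Il4ra and Stat6, only Lrp1, a scavenger receptor near Stat6, was called, at 514 CPM in KO EAE, 542 CPM in KO and 32.2 CPM in WT (log2 change 4.07 ± 0.17 in KO against WT, SE; edgeR adjusted p = 6.17e-05). The 18 macrophage markers moved with Lrp1 and the other genes higher in KO, at a sum of 2714 and 3062 CPM in KO EAE, 2955 and 3484 CPM in KO and 495 and 530 CPM in WT, and their part was not tested. For the normalized table neither limma, fitted without a block, nor edgeR on recovered reads called any of these neighbours. Limma gave an unadjusted p under 0.05 to 3 of 7 around the cytokine cluster, 1 of 7 around Il1rl1, 4 of 9 around Ccr3 and 3 of 9 around Pparg, Il4ra and Stat6, against 12.7% of all genes.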
